A study of Mus musculus with 9 samples.

Results

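GABA-A receptors are chloride channels built of 5 subunits around a central pore, and the subunits set where on a neuron a receptor sits and how it responds to GABA. The genes described are Gabra2, Gabra3, Gabra4 and Gabra5 (alpha subunits), Gabrb1 and Gabrb2 (beta subunits) and Gabrd (the delta subunit). They were named as a list of GABA-A subunit genes, make up 7 of the 19 GABA-A subunit genes in the deposited counts, and are 7 of the 47643 genes counted there. In the rodent hippocampus alpha5 is abundant in CA1 and CA3 pyramidal cells, where it forms largely extrasynaptic receptors that carry a tonic current. Alpha4 and delta meet in extrasynaptic receptors of dentate granule cells, alpha2 is enriched at synapses on the axon initial segment, and alpha3 is scarce in hippocampal principal cells. Receptors at synapses usually hold a gamma subunit, which binds the clustering machinery.

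The study asked how a mouse model of systemic lupus differs from its control in the hippocampus, and sequenced poly-A RNA from 9 mice, 3 in each of 3 groups. MRL/mpj mice are labelled wild type. MRL/lpr mice carry the lpr insertion in Fas, which impairs lymphocyte apoptosis and leads to autoantibodies, and are labelled untreated, although the series title speaks of mice given PBS. MRL/lpr+MSC mice have the MRL-lpr genotype and were given mesenchymal stem cells, whose source, dose, route and timing the labels leave out. All 9 were taken at post natal week 6, the tissue label is Hippocampus throughout, and sex is not labelled. The labels name C57BL/6 as the strain of every sample, whereas the series title and the paper name MRL/MpJ and MRL/MpJ-Faslpr mice. The lpr insertion is carried in every cell of the mouse, so brain and immune effects are not separated in this model. The numbers 1, 2 and 3 in the titles are read as separate mice, with no pairing across groups.

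Levels are given as CPM, the reads of a gene over the library's scaled total in units of 1e6. Total counts ran from 19475804 to 24114666 in MRL/mpj (median 20991419), from 22438063 to 26912031 in MRL/lpr (22858589) and from 20014975 to 21914100 in MRL/lpr+MSC (21213137). A count of 3, taken as the floor, was 0.105 to 0.163 CPM. All 7 genes lay far above that floor in all 9 libraries, the lowest value being 13.9 CPM for Gabra3 in MRL/lpr replicate 2, and all 7 passed the filter on low counts in each comparison.

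Hippocampal markers were present in every library. Summed over 5 dentate granule cell genes, with Prox1 the most abundant, the level was 531.1, 633.5 and 414.3 CPM across MRL/mpj, 408.3, 726.0 and 364.6 in MRL/lpr, and 305.6, 450.7 and 428.5 in MRL/lpr+MSC. Over 4 CA1 genes, with Wfs1 the most abundant, it was 612.4, 746.4 and 707.8 CPM across MRL/mpj, 472.7, 242.7 and 474.6 in MRL/lpr, and 473.2, 599.0 and 470.1 in MRL/lpr+MSC. No marker of either list was at the floor.

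Several libraries stood apart, and each result below should be read with them in mind. Genes typical of the choroid plexus (5 genes, Ttr the most abundant) summed to 9579 CPM in MRL/lpr replicate 2 and 4806 CPM in MRL/lpr+MSC replicate 2. Elsewhere that sum was 163.2, 515.1 and 700.5 CPM across MRL/mpj, 1052 and 95.7 in MRL/lpr replicates 1 and 3, and 98.3 and 536.5 in MRL/lpr+MSC replicates 1 and 3. A list of 8 genes expressed in septum, hypothalamus and other subcortical forebrain (Isl1, Six3, Nkx2-1, Zic1, Chat, Slc5a7, Ecel1 and Baiap3) was put together after the values had been seen. It summed to 38.8, 29.1 and 21.5 CPM in MRL/mpj, to 278.8, 94.7 and 597.8 in MRL/lpr, and to 18.6, 205.6 and 463.5 in MRL/lpr+MSC. Replicate 1 was thus the only MRL/lpr+MSC library, and the only library of either lpr group, in which that sum did not exceed the MRL/mpj range.

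The labels and a published table do not match. In a gene table issued with the study, the values headed MRL/lpr are constant multiples, gene by gene, of the counts in the libraries labelled MRL/lpr+MSC, while those headed MRL/mpj are multiples of the libraries labelled MRL/mpj. Whether the labels of the lpr groups were exchanged in one place or the other was not tested and cannot be told apart from the counts. The group names here follow the labels, and each lpr group is set against the same MRL/mpj libraries.

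Abundance can be compared between genes only per unit of length, for which the deposited FPKM values (reads scaled to gene length and library size) were used. In MRL/mpj, Gabra5 was the most abundant of the 7 at 68.8 FPKM (SD 1.47, n = 3), followed by Gabra2 at 39.0 (SD 1.66). Next came Gabrb2 at 24.6 (SD 0.908), Gabra4 at 22.3 (SD 1.51) and Gabrb1 at 19.1 FPKM (SD 0.0944). Gabrd at 10.2 (SD 1.74) and Gabra3 at 8.98 (SD 0.899) closed the order and did not differ beyond their spread, whereas the ranges of all other neighbours in the order were separate.

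The order was looser in the lpr groups. In MRL/lpr, Gabra5 (37.6 FPKM, SD 9.91) and Gabra2 (30.0, SD 1.42) did not differ beyond their spread. Behind them Gabrb2 (18.3), Gabrb1 (17.3), Gabra4 (15.9), Gabra3 (12.2, SD 9.88) and Gabrd (9.01) formed a run in which each neighbour overlapped the next. Means in MRL/lpr+MSC were 42.7 for Gabra5 (SD 10.1) and 33.9 for Gabra2 (SD 7.57), again overlapping. Gabrb2 (21.1) overlapped Gabrb1 (19.1), Gabra4 (16.7) overlapped Gabra3 (15.7), and Gabrd (9.05) was separate at the bottom.

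**Figure D1:**
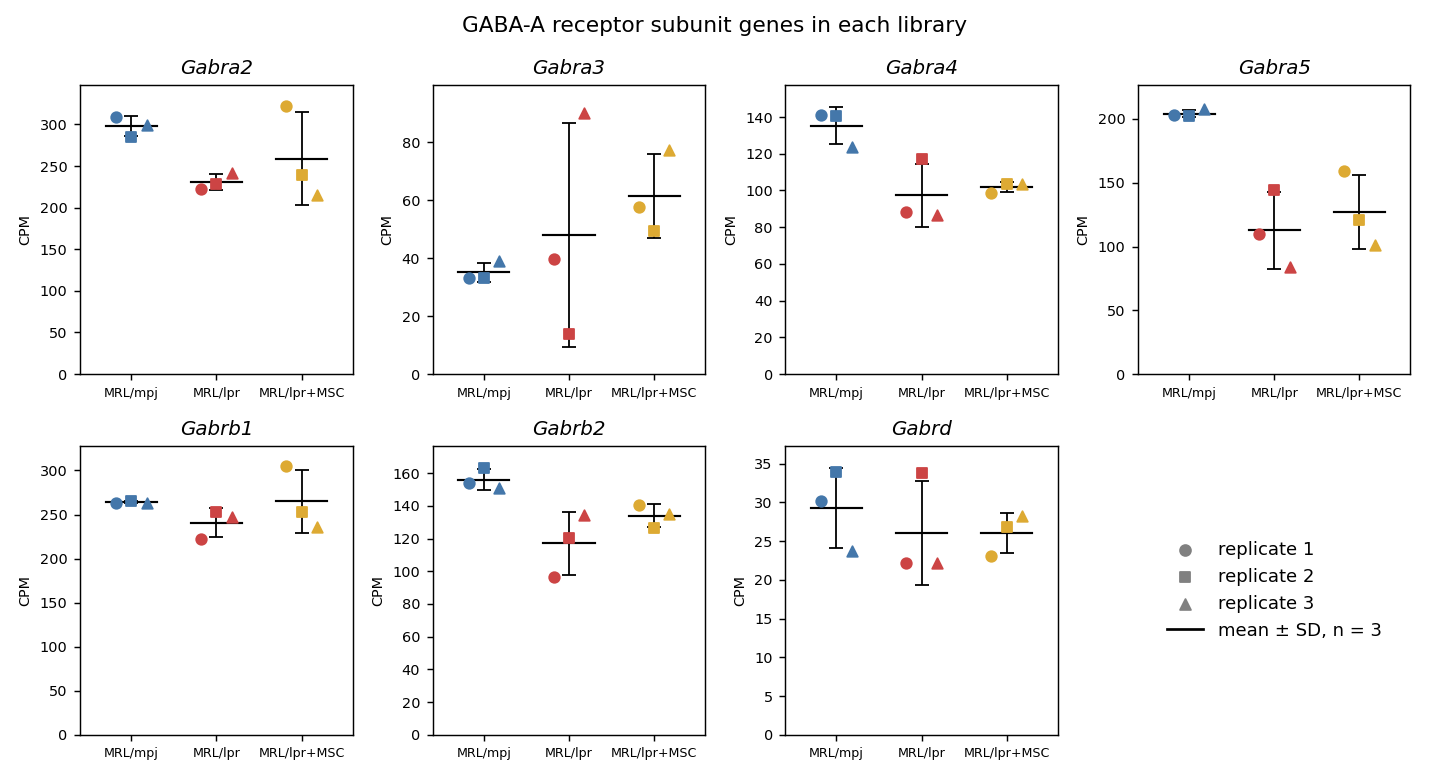
Level of each of the 7 subunit genes (CPM, vertical axis) in the libraries of the 3 groups, named on the horizontal axis; each point is 1 mouse, its shape the replicate number, the black line the group mean and the bars ± 1 SD (n = 3). Gabra5 lies at 204.3 CPM on average in MRL/mpj and below every MRL/mpj library in both lpr groups, while Gabra3 spreads from 13.9 to 90.1 CPM within MRL/lpr.

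In MRL/lpr against MRL/mpj, subunit levels were mostly lower. Of the 7 genes, 5 (Gabra2, Gabra4, Gabra5, Gabrb1 and Gabrb2) had every MRL/lpr library below every MRL/mpj library, beside 18.6% of all tested genes (3098). For 0 of the 7 was every MRL/lpr library above, beside 19.4% of all tested genes (3239). Differences were tested with limma voom on the 6 libraries, and a gene is called where its p, adjusted by Benjamini-Hochberg over all tested genes, is under 0.05. By this rule 2 of the 7 were called, beside 9.32% of all tested genes (1556 of 16697). Both called genes were lower, where 4.99% of all genes were called lower (834), and 0 of the 7 were called higher, where 4.32% of all genes were (722). With a change of at least 1.5-fold also required, 1 of the 7 was called, beside 5.80% of all genes (969). The 7 were chosen with earlier results of these data known, so the shares here and below are a description and no independent test. The median log2 fold change of the 7 was -0.36, against 0.02 over all tested genes, and 6 of the 7 estimates were negative. In bulk tissue, fewer cells of a type and less RNA per cell cannot be told apart.

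Gabra5 (ENSMUSG00000055078, chromosome 7, 57407672 to 57510059, minus strand) encodes the alpha5 subunit of tonic, extrasynaptic receptors. Its level was 203.1, 202.1 and 207.6 CPM in MRL/mpj, against 109.7, 144.3 and 84.3 CPM in MRL/lpr. The MRL/mpj libraries lay close together, and even the highest MRL/lpr library, replicate 2, stayed well under them. Gabra5 fell in MRL/lpr with a log2 fold change of -0.89 (95% interval -1.33 to -0.45, adjusted p 0.0355), to 0.540 of the MRL/mpj level, in 3 of 3 MRL/lpr libraries. The call was lost without MRL/mpj replicate 1 (-0.89, adjusted p 0.118), replicate 2 (-0.90, 0.109) or replicate 3 (-0.87, 0.127), and without MRL/lpr replicate 1 (-0.88, 0.112). It held without MRL/lpr replicate 2 (-1.08, 0.00451), the library high in choroid plexus genes, and without replicate 3 (-0.69, 0.0171), the library highest in subcortical forebrain genes.

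Gabra2 (ENSMUSG00000000560, chromosome 5, 70957597 to 71095849, minus strand) encodes alpha2, found at synapses on the axon initial segment among other sites. Its level was 308.3, 284.6 and 299.6 CPM in MRL/mpj, with 222.3, 228.4 and 241.9 CPM in MRL/lpr. Here both groups were tight and there was no overlap. The gene fell by 0.36 log2 units (95% interval -0.52 to -0.21, adjusted p 0.0249) in 3 of 3 MRL/lpr libraries, which is less than 1.5-fold. That call was lost without MRL/mpj replicate 1 (-0.34, adjusted p 0.111), replicate 2 (-0.40, 0.0775) or replicate 3 (-0.35, 0.117), and without MRL/lpr replicate 1 (-0.33, 0.0860). It held without MRL/lpr replicate 2 (adjusted p 0.0236) or replicate 3 (0.0204).

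Gabra4 (ENSMUSG00000029211, chromosome 5, 71569749 to 71658308, minus strand) encodes alpha4, a partner of delta in dentate granule cells. It was read at 141.3, 140.8 and 123.6 CPM in MRL/mpj and at 88.0, 117.1 and 86.8 CPM in MRL/lpr. The 3 MRL/lpr libraries were below all of MRL/mpj, with replicate 2 nearest to them, yet the gene was not called (log2 fold change -0.48, 95% interval -0.79 to -0.18, adjusted p 0.0615). It was called in 5 of 15 alternatives (adjusted p 0.00730 to 1), among them the fit without MRL/lpr replicate 2 (-0.62, 0.00730), that with no filter on low counts (-0.48, 0.0485) and that of all 9 libraries together (-0.48, 0.04).

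Gabra3 (ENSMUSG00000031343, chromosome X, 72432681 to 72656848, minus strand) encodes alpha3. It differed from the rest in its scatter. MRL/mpj libraries held 33.2, 33.3 and 38.91 CPM, and MRL/lpr libraries 39.8, 13.9 and 90.1 CPM. Replicate 3 was thus above every MRL/mpj library, replicate 1 only just so, and replicate 2 below them all. The log2 fold change was 0.08 with an interval too wide to give a direction (95% interval -1.42 to 1.59, adjusted p 0.941). It was 0.77 without MRL/lpr replicate 2 (adjusted p 0.187) and -0.51 without replicate 3 (adjusted p 0.477).

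Of the beta subunits, Gabrb2 (ENSMUSG00000007653, chromosome 11, 42419757 to 42629028, plus strand) encodes beta2. Its values were 153.8, 163.4 and 151.0 CPM in MRL/mpj, and then 96.5, 120.2 and 134.3 CPM in MRL/lpr. All 3 MRL/lpr libraries were below MRL/mpj, spread over a wider range, and the gene was not called (log2 fold change -0.42, 95% interval -0.71 to -0.14, adjusted p 0.0719). Without MRL/lpr replicate 3 it was (-0.53, adjusted p 0.0266).

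Gabrb1 (ENSMUSG00000029212, chromosome 5, 71658113 to 72149037, plus strand) encodes beta1. In MRL/mpj it was almost constant at 263.6, 265.0 and 263.3 CPM, and MRL/lpr gave 222.2, 253.0 and 247.2 CPM. The MRL/lpr libraries were again all lower, but the difference was small and not called (log2 fold change -0.13, 95% interval -0.30 to 0.03, adjusted p 0.250).

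Gabrd (ENSMUSG00000029054, chromosome 4, 155384980 to 155398112, minus strand) encodes delta, which replaces gamma in extrasynaptic receptors. Values were 30.2, 33.95 and 23.7 CPM in MRL/mpj, next to 22.2, 33.8 and 22.1 CPM in MRL/lpr. The groups overlapped, since MRL/lpr replicate 2 lay at the top of the MRL/mpj range, and the gene was not called (log2 fold change -0.20, 95% interval -0.69 to 0.29, adjusted p 0.542).

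The count of calls moved when single libraries were left out. Leaving out a library also makes its group smaller, and these cannot be told apart in the lost calls. The number of the 7 called went from 2 to 0 without MRL/mpj replicate 1, 2 or 3 or MRL/lpr replicate 1, and the genes called in all went from 1556 to 230, 220, 139 and 328. It went to 3 without MRL/lpr replicate 2 (2647 genes in all) and to 3 without MRL/lpr replicate 3 (1818 genes in all). Scaling by total counts alone moved the median of all genes from 0.02 to 0.15. Under it Gabra2 was at -0.24 and no longer called (adjusted p 0.0599), nor was it with all 9 libraries in one fit (-0.37, 0.114). Of 15 alternatives Gabra2 was called in 8 (adjusted p 0.00965 to 1) and Gabra5 in 10 (0.00451 to 0.95). Under total count scaling no direction among the 7 turned.

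**Figure D2:**
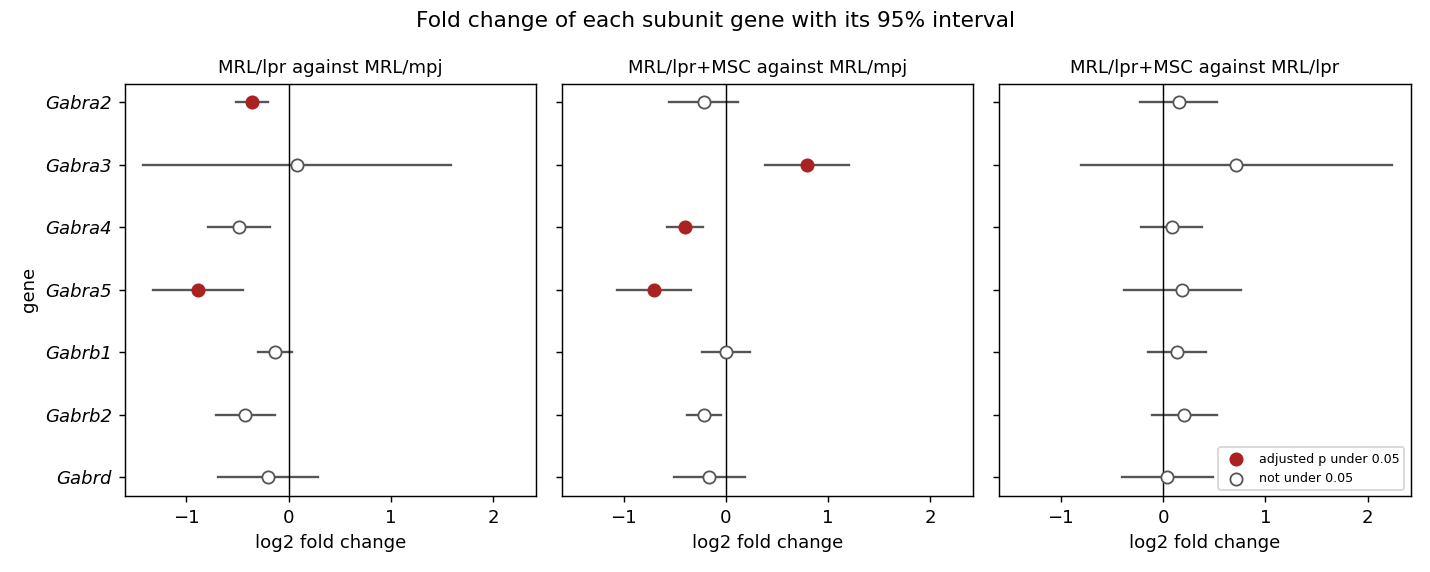
Log2 fold change of the 7 subunit genes (horizontal axis) in each of the 3 comparisons, with 95% intervals from limma voom as bars (n = 3 a group); filled points have an adjusted p under 0.05. Gabra5 is filled in both comparisons with MRL/mpj, at -0.89 and -0.71, and no point is filled for MRL/lpr+MSC against MRL/lpr.

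Some genes of the marker lists were called in the same comparisons, and some lists had none called. In MRL/lpr against MRL/mpj, 2 of 4 CA1 genes were called lower (Fibcd1 and Mpped1), and the CA1 sum was under the MRL/mpj range in all 3 MRL/lpr libraries. It was under that range in all 3 MRL/lpr+MSC libraries as well, where 1 of 4 was called lower (Fibcd1, log2 fold change -0.79, adjusted p 0.00876, in 3 of 3 libraries). Summed over 6 genes of neurons in general (Snap25 the most abundant), the level was 5789, 5359 and 6307 CPM across MRL/mpj, 4214, 4752 and 4490 in MRL/lpr, and 6827, 4598 and 4716 in MRL/lpr+MSC. All 6 had negative estimates in MRL/lpr and 1 was called lower (Syt1, -0.54, adjusted p 0.0241, in 3 of 3 libraries), and 0 of 6 were called in MRL/lpr+MSC. Summed excitatory neuron genes (Slc17a7, Camk2a, Neurod2 and Nrgn, Camk2a the most abundant) were 8990, 8863 and 9088 CPM across MRL/mpj, 6201, 8023 and 4981 in MRL/lpr, and 8077, 7009 and 5909 in MRL/lpr+MSC. Of those 4, 0 were called in MRL/lpr and 1, Neurod2, was called lower in MRL/lpr+MSC. Gabra5 shared with that sum its order within MRL/lpr, replicate 2 highest and replicate 3 lowest, and its order within MRL/lpr+MSC, replicate 1 highest and replicate 3 lowest. The list of dentate granule cells, in which Gabra4 and Gabrd are expressed, had 0 of 5 called in either comparison, and its highest sum was in MRL/lpr replicate 2, also the library with the most Gabra4 and Gabrd in that group. No marker of these lists was at the floor, and their part in the result was not tested.

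The interneuron list (7 genes, Gad1 the most abundant) summed to 597.4, 634.2 and 659.9 CPM across MRL/mpj, 654.6, 414.0 and 1350 in MRL/lpr, and 599.6, 665.9 and 1097 in MRL/lpr+MSC. In MRL/lpr 4 of the 7 were called lower (Pvalb, Vip, Lamp5 and Npy), 5 of 7 estimates were negative and the list median was -0.64. Gad1 and Gad2 had positive estimates and were not called, and the sum is high in replicate 3 with them. In MRL/lpr+MSC 0 of 7 were called. Within MRL/lpr, Gabra3 was ordered as this sum and the subcortical forebrain sum were, highest in replicate 3 and lowest in replicate 2. Among MRL/lpr+MSC libraries Gabra3 was highest in replicate 3 too, but its lowest value was in replicate 2 and not in replicate 1, where both sums were lowest. Gabra5 ran opposite to the subcortical forebrain sum in both lpr groups, highest where that sum was lowest (replicate 2 of MRL/lpr, replicate 1 of MRL/lpr+MSC) and lowest in replicate 3, where it was highest. Of the 8 subcortical genes (Zic1 the most abundant) 0 were called in MRL/lpr, and 0 of the 4 that could be tested in MRL/lpr+MSC. The choroid plexus list had 0 of 5 called in either comparison. In MRL/mpj, Isl1 (counts of 1, 0 and 0) and Chat (1, 1 and 2) were at or under the floor, as both were in MRL/lpr+MSC replicate 1 with counts of 0. No other marker of these lists was at the floor throughout a group, and their part in the result was not tested.

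Further lists were read in the same comparisons, and some had genes called while others had none. The thalamus list (7 genes, Zic1 the most abundant) summed to 206.5, 159.1 and 188.7 CPM across MRL/mpj, 456.1, 222.8 and 644.9 in MRL/lpr, and 112.3, 367.0 and 560.3 in MRL/lpr+MSC, with 0 of 7 called in either comparison. Gabra5 ran opposite to this sum in both lpr groups too. The sum is not independent of the subcortical forebrain sum, since Zic1 is in both lists. Zic1 alone was at 205.6, 62.35 and 348.9 CPM in MRL/lpr and at 11.1, 154.6 and 252.9 in MRL/lpr+MSC. The striatum list (7 genes, Pde10a the most abundant) summed to 158.7, 178.2 and 174.2 CPM across MRL/mpj, 190.9, 236.3 and 190.9 in MRL/lpr, and 177.3, 229.9 and 272.9 in MRL/lpr+MSC. Of it 1 was called higher in MRL/lpr (Rgs9, log2 fold change 0.96, adjusted p 0.0310, in 3 of 3 libraries) and 0 were called in MRL/lpr+MSC. The neocortex list (5 genes, Lamp5 the most abundant) summed to 105.6, 100.7 and 113.5 CPM across MRL/mpj, 83.0, 75.5 and 80.9 in MRL/lpr, and 144.1, 102.3 and 78.6 in MRL/lpr+MSC. Of it 2 were called lower in MRL/lpr (Fezf2, -0.83, adjusted p 0.0151, and Lamp5, -0.55, adjusted p 0.0354, each in 3 of 3 libraries) and 0 in MRL/lpr+MSC. Microglia genes (5, Csf1r the most abundant) summed to 298.8, 270.0 and 276.1 CPM across MRL/mpj, 281.5, 227.9 and 218.9 in MRL/lpr, and 237.1, 253.6 and 221.1 in MRL/lpr+MSC. Of these, 2 were called lower in MRL/lpr (Cx3cr1, -0.46, adjusted p 0.0377, and P2ry12, -0.57, adjusted p 0.0149) and 1 in MRL/lpr+MSC (Cx3cr1, -0.42, adjusted p 0.0399), each in 3 of 3 libraries. Endothelial genes (4, Flt1 the most abundant) summed to 248.6, 233.0 and 245.0 CPM across MRL/mpj, 282.4, 323.0 and 283.8 in MRL/lpr, and 322.6, 338.6 and 285.0 in MRL/lpr+MSC. Of these, 1 was called higher in both (Cldn5, 0.73, adjusted p 0.00830, and 0.87, adjusted p 0.0120, in 3 of 3 libraries each). No marker of these lists was at the floor, and their part in the result was not tested.

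In MRL/lpr+MSC against MRL/mpj, alpha subunits changed in opposite directions. These values share their MRL/mpj libraries with the comparison above, so the pair are not independent. Of the 7, 3 were called, beside 5.00% of all tested genes (810 of 16196). Gabra4 and Gabra5 were lower, 2 of 7 against 2.54% of all genes called lower (411), and Gabra3 was higher, 1 of 7 against 2.46% called higher (399). Every MRL/lpr+MSC library was below every MRL/mpj library for 3 of the 7 (Gabra4, Gabra5 and Gabrb2), beside 14.4% of all tested genes, and above them for 1 (Gabra3), beside 15.2%. With at least 1.5-fold required, 2 of the 7 were called (Gabra3 and Gabra5), beside 3.41% of all genes (553). The median log2 fold change of the 7 was -0.22, against 0.01 over all tested genes, and 5 of the 7 estimates were negative.

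Gabra5, from 203.1, 202.1 and 207.6 CPM in MRL/mpj, was at 158.9, 120.6 and 101.4 CPM in MRL/lpr+MSC. No library overlapped. Gabra5 fell by 0.71 log2 units (95% interval -1.07 to -0.34, adjusted p 0.0493), in 3 of 3 libraries. The call was lost without MRL/mpj replicate 1 (-0.71, adjusted p 0.161), replicate 2 (-0.74, 0.163) or replicate 3 (-0.69, 0.169), and without MRL/lpr+MSC replicate 2 (-0.69, 0.128) or replicate 3 (-0.57, 0.0951). Only without replicate 1 of MRL/lpr+MSC did it stay (-0.88, adjusted p 0.00172).

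Gabra4 was at 98.6, 103.5 and 103.7 CPM in MRL/lpr+MSC, a tight group below the 123.6 to 141.3 CPM of MRL/mpj. It fell by 0.40 log2 units (95% interval -0.58 to -0.22, adjusted p 0.0332) in 3 of 3 libraries. The call was lost without MRL/mpj replicate 1 (-0.37, adjusted p 0.134), replicate 2 (-0.39, 0.122) or replicate 3 (-0.47, 0.0588), and without MRL/lpr+MSC replicate 2 (-0.43, 0.0724) or replicate 3 (-0.43, 0.0798). It held without MRL/lpr+MSC replicate 1 (-0.37, adjusted p 0.0196). That Gabra4 was called here and not in MRL/lpr does not show that the lpr groups differ, as the next comparison gives that difference directly.

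Gabra3 was at 57.6, 49.4 and 77.4 CPM in MRL/lpr+MSC, each above the 33.2 to 38.91 CPM of MRL/mpj. It rose by 0.79 log2 units, or 1.74-fold (95% interval 0.39 to 1.203, adjusted p 0.0498), in 3 of 3 libraries. The adjusted p sits at the threshold. It passed the threshold without MRL/lpr+MSC replicate 1 (0.84, adjusted p 0.0448) or replicate 2 (0.93, 0.0377). The call was lost without replicate 3 of that group (0.60, adjusted p 0.0704) and without MRL/mpj replicate 1 (0.76, 0.167), replicate 2 (0.73, 0.179) or replicate 3 (0.87, 0.131).

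The other 4 were not called. Gabra2 was at 321.8, 239.3 and 215.3 CPM, with replicate 1 above every MRL/mpj library and the others below them all (log2 fold change -0.22, 95% interval -0.55 to 0.12, adjusted p 0.418). Gabrb1 behaved alike, at 305.4, 252.8 and 236.3 CPM, replicate 1 again above MRL/mpj and the others below (0.0018, 95% interval -0.23 to 0.24, adjusted p 0.995). Gabrb2 was at 140.3, 126.6 and 135.0 CPM, with all 3 libraries below MRL/mpj (-0.22, 95% interval -0.38 to -0.05, adjusted p 0.126). For Gabrd the values were 23.1, 26.8 and 28.2 CPM, and 1 library was below MRL/mpj (-0.16, 95% interval -0.51 to 0.18, adjusted p 0.562). Without MRL/lpr+MSC replicate 1, Gabra2 (-0.38, adjusted p 0.0147) and Gabrb2 (-0.25, adjusted p 0.0454) were called as well.

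Replicate 1 of MRL/lpr+MSC separates the subunits from one another. Its subcortical forebrain sum, 18.6 CPM, was the lowest of all 9 libraries, and its choroid plexus sum was among the lowest. Further lists stood apart there too. The neocortex sum (144.1 CPM) was the highest of all 9 libraries, and the thalamus sum (112.3) and meninges sum (72.1, over 4 genes) were the lowest. Hippocampal, neuronal and glial lists differed as well. Of all 9 libraries, replicate 1 had the lowest dentate granule cell sum (305.6 CPM) and the highest CA3 sum (316.1, over 4 genes). It also had the highest sum of general neuronal genes (6827) and the lowest oligodendrocyte sum (3980, over 5 genes). In this library, Gabra5 at 158.9 CPM and Gabra4 at 98.6 CPM were below every MRL/mpj library, Gabra2 at 321.8 and Gabrb1 at 305.4 CPM were above every one, and Gabra3 at 57.6 CPM was above every one. The number of the 7 called went from 3 to 5 without it (2553 genes called in all, from 810). It went to 0 without MRL/mpj replicate 1, 2 or 3 (183, 201 and 163 genes in all) or MRL/lpr+MSC replicate 3 (260), and to 1 without MRL/lpr+MSC replicate 2 (386). Of 15 alternatives, Gabra3 was called in 7, Gabra4 in 6 and Gabra5 in 5.

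In MRL/lpr+MSC against MRL/lpr, that is, with and without the labelled stem cells, no gene was called by limma voom with Benjamini-Hochberg adjustment. That is 0 of the 7, beside 0% of all 16758 tested genes. At an unadjusted p under 0.05 there were 648 genes and 0 of the 7, and limma-trend called 0 genes as well. Leaving out any 1 library called no gene either. The ranges of the groups overlapped for all 7, so 0 of 7 were separate, beside 9.98% of all tested genes. The median log2 fold change of the 7 was 0.15, against 0.00 over all tested genes, and 0 of the 7 estimates were negative.

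Among the alpha genes, Gabra3 had the largest estimate and by far the widest interval (log2 fold change 0.72, 95% interval -0.80 to 2.24, adjusted p 0.921). Gabra5 was at 0.19 (95% interval -0.39 to 0.76, adjusted p 0.924) and Gabra2 at 0.15 (95% interval -0.22 to 0.52, adjusted p 0.921). For Gabra4 the estimate was 0.08 (standard error 0.12, adjusted p 0.930). Intervals of this width hold both no change and, for Gabra5, a change as large as 1.5-fold upwards, so the data do not show that the lpr groups were alike. Of the remaining subunits, Gabrb2 was at 0.21 (standard error 0.13, adjusted p 0.921), Gabrb1 at 0.14 (standard error 0.12, adjusted p 0.921) and Gabrd at 0.04 (standard error 0.18, adjusted p 0.979).

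Read as shares of the summed FPKM of the 6 alpha genes, the alpha genes changed places in part. Gabra5 made up 36.9%, 36.5% and 37.7% in MRL/mpj, 31.6%, 37.9% and 20.5% in MRL/lpr, and 32.6%, 29.5% and 24.9% in MRL/lpr+MSC. Its share in MRL/lpr replicate 2 was thus as high as in MRL/mpj, although its level there was lower. Gabra3 made up 4.58%, 4.55% and 5.35% in MRL/mpj, 8.69%, 2.76% and 16.6% in MRL/lpr, and 8.95%, 9.15% and 14.4% in MRL/lpr+MSC. The library with the largest Gabra3 share in each lpr group, replicate 3, had the smallest Gabra5 share. Gabra2 was more even, at 21.0% on average in MRL/mpj, 23.7% in MRL/lpr and 23.0% in MRL/lpr+MSC. Gabra4 was at 11.98%, 12.6% and 11.6%. Shares were not tested.

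Other subunit genes were scattered as Gabra3 was. Gabrg1, the gamma1 subunit, was at 21.5, 15.7 and 19.1 CPM across MRL/mpj, 43.8, 20.3 and 76.3 in MRL/lpr, and 31.7, 43.1 and 62.2 in MRL/lpr+MSC (log2 fold change 1.15, adjusted p 0.191, and 1.26, adjusted p 0.0508). It was called without MRL/lpr replicate 2 (1.64, adjusted p 0.02) and without MRL/lpr+MSC replicate 1 (1.497, adjusted p 0.00770). Gabrg3, the gamma3 subunit, was at 20.4, 19.7 and 21.2 CPM across MRL/mpj, 30.5, 11.97 and 53.7 in MRL/lpr, and 24.1, 31.7 and 47.0 in MRL/lpr+MSC (0.42, adjusted p 0.632, and 0.71, adjusted p 0.151). Without MRL/lpr+MSC replicate 1 it was called (0.93, adjusted p 0.0178). In both genes, as in Gabra3, MRL/lpr replicate 3 was the highest library of its group and replicate 2 the lowest.

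Gabre and Gabrq, which flank Gabra3 on the X chromosome, were near the floor in MRL/mpj, at 0.349, 0 and 0.109 CPM and at 0.150, 0.0860 and 0 CPM. Gabre reached 2.52, 0.560 and 5.79 CPM in MRL/lpr and 0.104, 2.55 and 7.73 CPM in MRL/lpr+MSC. Gabrq reached 2.62, 0.560 and 12.97 CPM in MRL/lpr and 0.415, 2.23 and 13.1 CPM in MRL/lpr+MSC. No fold change is given, because the MRL/mpj values are at or near the floor. Neither was called in MRL/lpr (adjusted p 0.124 and 0.153), and neither could be tested in MRL/lpr+MSC against MRL/mpj. Gabrr2, of the rho subunits, stayed near 1 CPM in all groups and was not called (log2 fold change 0.12 and 0.17, adjusted p 0.854 and 0.75). Gabra6, Gabrp, Gabrr1 and Gabrr3 had too few counts for any test.

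**Figure D3:**
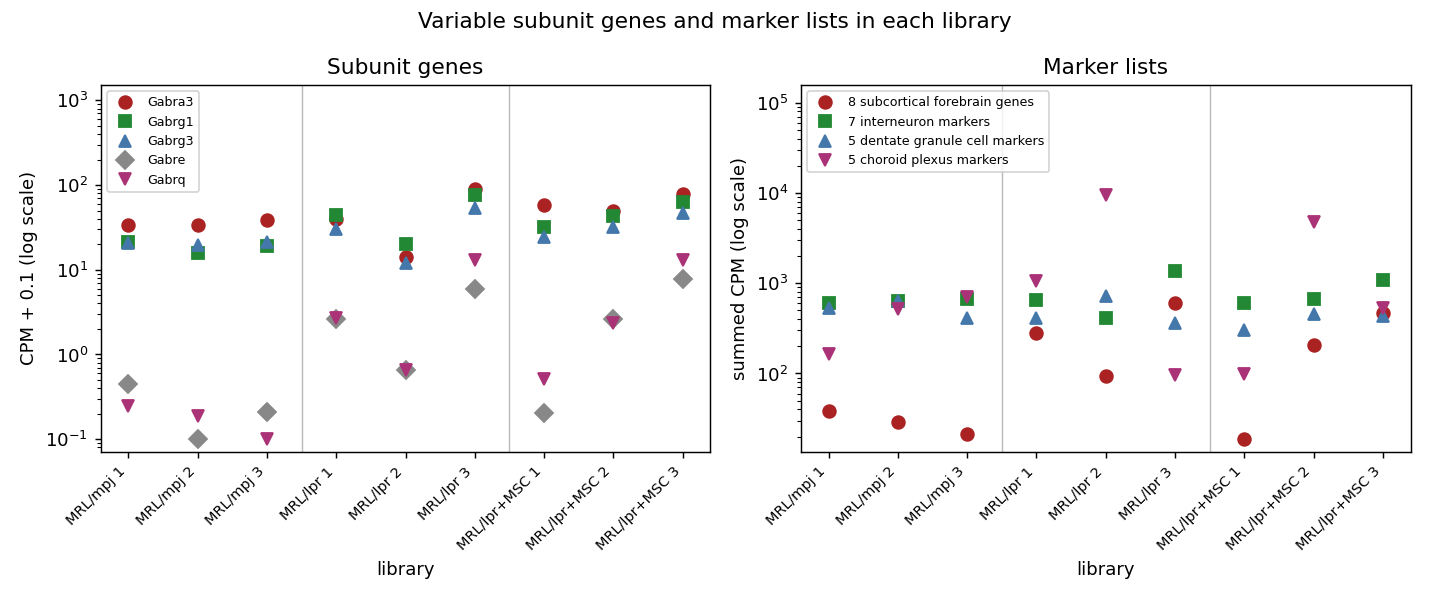
Left, CPM + 0.1 on a log scale of Gabra3, Gabrg1, Gabrg3, Gabre and Gabrq in each of the 9 libraries. Right, summed CPM on a log scale of subcortical forebrain, interneuron, dentate granule cell and choroid plexus genes in each library. Each gene or list has 1 point a mouse. Colours and shapes mark the genes or lists, and grey lines divide the groups. Gabrq runs from 0 CPM in MRL/mpj to 13.1 CPM in MRL/lpr+MSC replicate 3, and the subcortical forebrain sum is 597.8 CPM in MRL/lpr replicate 3 and 18.6 CPM in MRL/lpr+MSC replicate 1.

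The genes that anchor and serve the receptors were read in the same way. Of 14 genes of GABA-A clustering and assembly, all were tested, with a median log2 fold change of -0.20 in MRL/lpr against MRL/mpj. Gphn, encoding the scaffold gephyrin, went from 90.9, 88.2 and 89.1 CPM to 72.5, 71.7 and 73.1 CPM (-0.30, adjusted p 0.0257). Shisa7, encoding an auxiliary protein of the receptor, went from 214.2, 212.7 and 214.9 CPM to 163.1, 172.2 and 156.8 CPM (-0.38, adjusted p 0.0184). Both were lower in 3 of 3 libraries. Of the 14, 0 were called in MRL/lpr+MSC and the list median was -0.06, although Gphn (80.4, 79.9 and 73.7 CPM) was below every MRL/mpj library there too.

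Of 9 genes of GABA synthesis and transport, 0 were called in either comparison, with list medians of 0.39 and 0.34. Gad1, which makes GABA, was at 260.8, 269.6 and 266.5 CPM across MRL/mpj, 302.0, 202.4 and 596.8 in MRL/lpr, and 250.8, 301.8 and 501.3 in MRL/lpr+MSC, so replicate 3 stood out in both lpr groups as it did for Gabra3. Of 6 GABA-B receptor genes 1 was called, Kctd12, an auxiliary subunit, at 81.6, 89.0 and 80.3 CPM in MRL/mpj, against 66.6, 69.5 and 65.6 in MRL/lpr (-0.31, adjusted p 0.0380). Neither chloride transporter was called. Slc12a5, encoding KCC2, which keeps chloride low in neurons and was at 588.4 CPM on average, had log2 fold changes of -0.27 (adjusted p 0.0927) and -0.15 (adjusted p 0.255), with 3 of 3 libraries of each lpr group below MRL/mpj.

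Of 5 glycine receptor genes 4 could be tested in MRL/lpr, with 1 called lower and 1 higher. Glrb, whose product also binds gephyrin, was at 181.5, 181.8 and 188.6 CPM in MRL/mpj, with 145.5, 145.8 and 158.3 in MRL/lpr (-0.29, adjusted p 0.0376). Glra1 had counts of 0, 0 and 2 in MRL/mpj and of 12, 22 and 24 in MRL/lpr (adjusted p 0.0255, higher in 3 of 3 libraries). With MRL/mpj at the floor its fitted log2 fold change of 4.15 is no measure of size. Among fits that left out 1 library, Gphn, Shisa7 and Glrb kept their calls only without MRL/lpr replicate 2 or 3, Kctd12 only without MRL/lpr replicate 2, and Glra1, which passed the filter in 3 of these fits, was called without MRL/mpj replicate 3 (adjusted p 0.0389) but not without replicate 1 (0.107) or 2 (0.101). Total count scaling ended the calls of Gphn (-0.17, adjusted p 0.0940), Glrb (-0.17, 0.129) and Kctd12 (-0.18, 0.117) and kept that of Shisa7 (-0.25, 0.0374). Of 15 alternatives Gphn was called in 7, Glrb in 7, Kctd12 in 6 and Shisa7 in 10, with adjusted p reaching 1 for each.

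Most of the 7 genes lie in the GABA-A gene clusters of the mouse genome (GRCm38). On chromosome 5 the order is Gabrg1, Gabra2, Gabra4 and Gabrb1, with positive estimates for Gabrg1 and negative ones for Gabra2 and Gabra4 in both lpr groups. On chromosome 7 Gabrg3 precedes Gabra5, and there Gabra5 was called lower in both lpr groups while Gabrg3 had positive estimates. Chromosome 11 holds Gabra6 and Gabrb2, and the X chromosome Gabre, Gabra3 and Gabrq. Gabrd on chromosome 4 is in no such cluster. The genes of a cluster thus did not all have estimates of one sign on chromosomes 5 and 7.

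Some neighbours overlap, and the strand used in counting is not stated, so reads in shared exons are of uncertain origin. Gabra4 and Gabrb1 lie on opposite strands and share 196 bp at their starts, 46 of them exonic in both. Gabra5 shares 148 exonic bp, of 2974 exonic bp in all, with the antisense transcript Gm9962 (ENSMUSG00000055048).

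**Figure D4:**
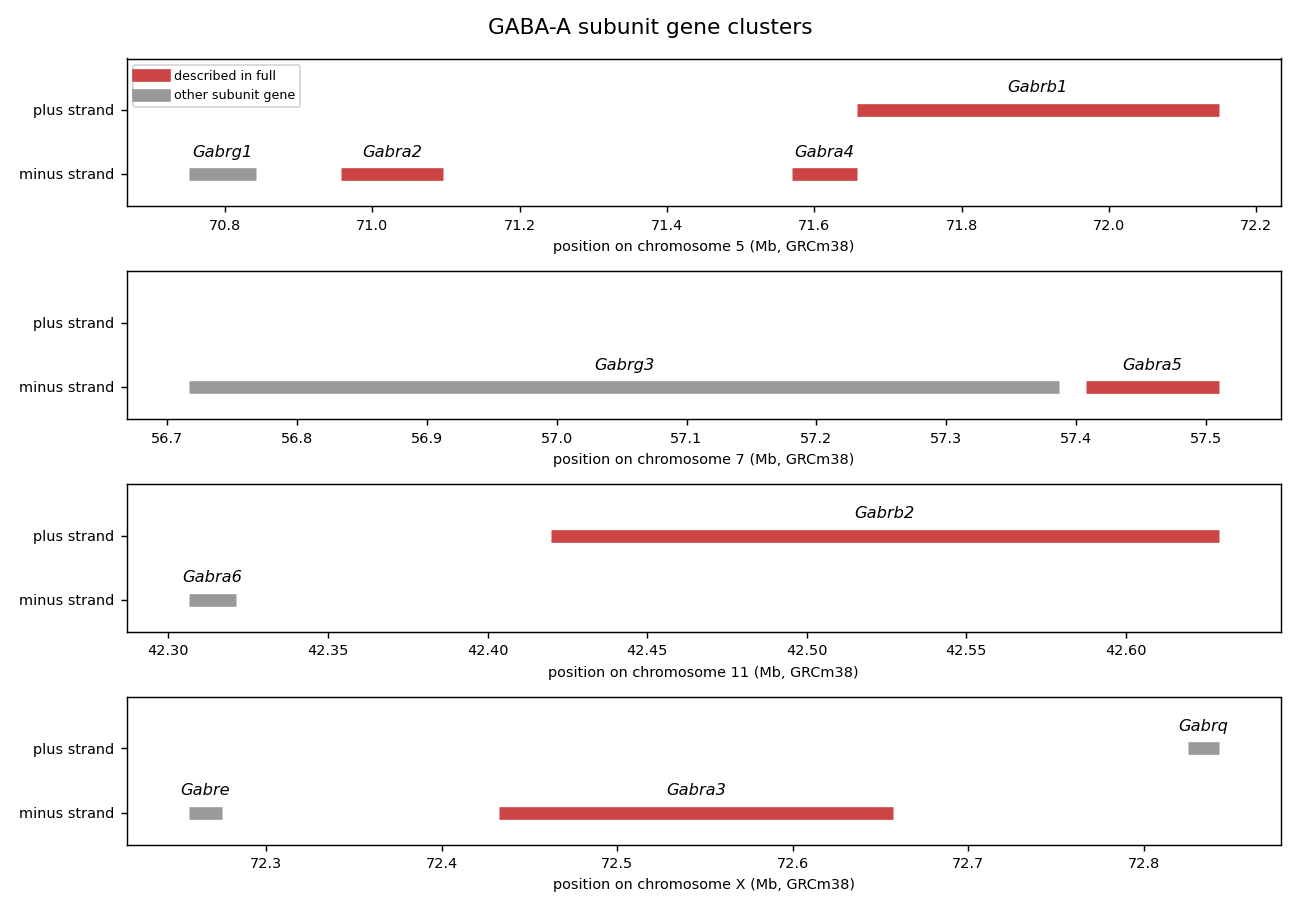
Spans of GABA-A subunit genes on chromosomes 5, 7, 11 and X (position in Mb, GRCm38, horizontal axis), drawn by strand; red marks genes described in full and grey further subunit genes. Gabra4 and Gabrb1 meet over 196 bp on chromosome 5.

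Promoter windows from RefSeq (GRCm38.p6, 300 bases, of which 250 lie before the gene start) were matched for 6 of the 7 genes, in 10 windows. For the windows given here, that of Gabra5 was 56.7% G or C with 13 CG dinucleotides, and that of Gabra4 58.7% with 12. For Gabrb1 the windows had 25 and 9, and for Gabrb2 11, 9 and 9. Both Gabra3 windows had 0 CG dinucleotides, at 43.0% and 39.3% G or C, beside a median of 7 and 52.7% over all 32851 windows. The site AAAGGTCA (the NBRE, bound by NR4A receptors) and the site TGACGTCA (the CRE, bound by CREB) were searched on both strands. They were in 0 of the 10 windows each, and in 495 (1.51%) and 588 (1.79%) of all 32851, which says only that those letters are not in these windows. The upstream bases of Gabra3 and Gabra5 are printed because these genes were called in opposite directions in MRL/lpr+MSC; capitals mark CG dinucleotides, 0 in Gabra3 (the first of its windows, chrX:72656920-72657169) and 9 in Gabra5 (chr7:57510060-57510309), both on the minus strand.
Gabra3: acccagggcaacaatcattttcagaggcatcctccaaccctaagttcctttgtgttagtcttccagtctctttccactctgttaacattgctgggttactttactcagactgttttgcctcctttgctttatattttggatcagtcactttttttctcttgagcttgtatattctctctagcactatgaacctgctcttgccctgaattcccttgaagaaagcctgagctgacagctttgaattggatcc
Gabra5: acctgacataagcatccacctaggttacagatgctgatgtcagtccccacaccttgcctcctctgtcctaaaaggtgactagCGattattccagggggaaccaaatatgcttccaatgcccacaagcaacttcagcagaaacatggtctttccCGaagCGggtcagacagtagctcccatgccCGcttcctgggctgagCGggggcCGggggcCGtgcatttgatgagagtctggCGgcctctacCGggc

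Finally, the genes most like each subunit gene were sought by the Pearson correlation of log2 CPM over the 9 libraries, among the 10259 genes that averaged 10 CPM or more. The 9 points share the group differences described above, so a high r is a description of the libraries and no more. Closest to Gabra5 were Sort1, Mcur1 and Arsb (r 0.992, 0.991 and 0.991), and Cit and Tox2 were among the closest to Gabra3 (0.992 and 0.980). Gabra2 was nearest to 6330403L08Rik, Zfp940 and Hdac4 (0.976, 0.973 and 0.970), and Gabra4 to Synrg, Ntrk3 and Pip5k1a (0.985, 0.982 and 0.978). No subunit gene was among the nearest genes of another. For Gabrb1 they were Trak1, Faxc and D6Wsu163e (0.970, 0.965 and 0.964), for Gabrb2 Slc12a5, Tusc3 and Gda (0.976, 0.962 and 0.960), and for Gabrd Map3k4, Btbd3 and Pitpnm2 (0.942, 0.938 and 0.935).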

How the data were processed

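RNA from the hippocampus of 9 mice (3 MRL/mpj, 3 MRL/lpr, 3 MRL/lpr+MSC) was sequenced by the authors. The deposited table holds raw whole-number read counts for 47643 Ensembl genes, and the deposited FPKM values, computed by the authors, come in a table for each library. The submitters' processing notes name TopHat2 and GRCm38, whereas the paper's methods name STAR and HTSeq. Each FPKM column was checked against the counts of its own library over 12235 genes, and all 9 matched. Of the genes, 47224 carried a symbol; all 140 symbols of the lists used were found.

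Counts were scaled to CPM with TMM factors (30% of log ratios and 5% of levels trimmed). A gene was tested where 3 or more libraries reached what would be 10 counts at the median library size, with 15 counts or more in sum. Each comparison used its own 6 libraries in limma voom with robust empirical Bayes moderation (limma 3.58.1, statmod 1.5.0, R 4.3.3) and Benjamini-Hochberg adjustment over all tested genes. The scripts were tested on simulated data. limma voom stood in for the quasi-likelihood test chosen at the outset, because the column separator of the table kept its unit from being registered as counts. A prior count of 2 was added for the log2 CPM used in correlations, and not in the tests. The floor of 3 counts covers counting error only; variation between mice is in the SD and the tests. No column lacked a sample, and no library was dropped.

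The 7 genes and the gene lists were chosen with earlier results of these data known. Genes are named by a rule: each of the 7, each other GABA-A subunit gene with counts, from the other GABA lists the genes called or, where none was, the most abundant, from the marker lists the most abundant and the called, and the 3 genes most like each of the 7. Some results under this rule are not reported here. Alternatives changed the test, the scaling, the low-count filter, the libraries fitted together and the block, left out each library in turn, and weighted or left out libraries.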

Additional observations from a re-analysis of the deposited data

How the results depend on the processing

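Under other choices the counts called moved as follows. In MRL/lpr against MRL/mpj, 2 of the 7 genes, 1556 genes in all and 8 other GABA genes were called. A test against a 1.5-fold change called 0, 104 and 0, and library quality weights, chosen after seeing the data, called 4, 3632 and 19. Total count scaling called 1 of the 7 and 5 other GABA genes. Leaving out each library in turn gave 0 to 3, 139 to 2647 and 0 to 12. In MRL/lpr+MSC against MRL/mpj, from 3, 810 and 3, the test against 1.5-fold called 0, 100 and 0, and RLE scaling or a filter at a mean of 1 CPM called 1 of the 7. All 9 libraries in one fit called 0 of the 7 and 1 other GABA gene. The replicate block called 1, 302 and 1, and quality weights 2075 genes and 9 other GABA genes. Leaving out each library gave 0 to 5, 163 to 2553 and 0 to 13. Libraries numbered 1 did not correlate positively across groups (r -0.21 to -0.02), and those numbered 2 and 3 did so weakly (0.07 to 0.35). The numbers are read as separate mice, so the replicate block is given only here. Under the block Gabra3 kept its call in MRL/lpr+MSC against MRL/mpj, while Gabra4 and Gabra5 lost theirs. In MRL/lpr against MRL/mpj, Gabra4 was called under the block (adjusted p 0.0458), as it was with quality weights (0.0177). MRL/lpr+MSC against MRL/lpr called 0 under all alternatives. Total count scaling raised the share of called genes that were higher from 46.4% to 73.0% in MRL/lpr and from 49.3% to 62.1% in MRL/lpr+MSC. Some estimates turned direction. In MRL/lpr against MRL/mpj these were Gabrr2 (-0.1859 without MRL/lpr replicate 1, -0.19 to 0.43 over libraries left out), Gabra3 (-0.5108 without MRL/lpr replicate 3, -0.51 to 0.77) and Gabrg3 (-0.0346 without MRL/lpr replicate 3, -0.03 to 0.98). In MRL/lpr+MSC against MRL/mpj, Gabrb1 was -0.0055 under RLE, -0.008 with no filter, -0.0024 with all 9 libraries, -3e-04 with the replicate block, -0.0677 with quality weights, and -0.0182, -7e-04 and -0.1026 without MRL/mpj replicate 2, MRL/mpj replicate 3 and MRL/lpr+MSC replicate 1 (-0.1026 to 0.0641). Gabrr2 was -0.001 without MRL/lpr+MSC replicate 3 (-0.001 to 0.2483). In MRL/lpr+MSC against MRL/lpr, Gabrd was -0.0259 under total count scaling, -0.0679, -0.0503 and -0.0243 without MRL/lpr replicate 1, MRL/lpr replicate 3 and MRL/lpr+MSC replicate 3 (-0.0679 to 0.2286), and -0.1157 without both libraries numbered 3, a choice made after seeing the data. Gabra4 was -0.0038 without both. Gabra5 was -6e-04 without MRL/lpr replicate 3 (-6e-04 to 0.3785) and Gabra2 -0.0293 without MRL/lpr+MSC replicate 1 (-0.0293 to 0.2704). With libraries left out in turn, MRL/lpr against MRL/mpj gave Gabra2 -0.40 to -0.33, Gabra5 -1.08 to -0.69 and Gabra4 -0.62 to -0.40, and MRL/lpr+MSC gave Gabra3 0.60 to 0.93, Gabra4 -0.47 to -0.37 and Gabra5 -0.88 to -0.57. Where 1 library moved a result, the cause was not tested. Limits are 3 mice a group, unlabelled sex, and bulk tissue. The DESeq2 Wald test named as an alternative was not run.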
